A study of Homo sapiens with 6 samples.

Results

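The genes that write, maintain and erase DNA methylation were examined in azacitidine-resistant and azacitidine-sensitive K562 cells. They were 10 named genes: the DNA methyltransferase genes DNMT1, DNMT3A, DNMT3B and DNMT3L, the maintenance factor genes UHRF1, UHRF2 and HELLS, and the dioxygenase genes TET1, TET2 and TET3. Each symbol matched 1 row among the 61487 genes of the deposited count table, and 9 of the 10 passed the filter on low counts. DNMT3L did not.

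K562 is a human chronic myeloid leukaemia line. The resistant population was derived from it by months of growth under stepwise higher doses of azacitidine, a cytidine analogue, and it was compared with sensitive K562 cells cultured in the same medium, to ask how the derived cells differ. There were 3 resistant and 3 sensitive libraries of DNase-treated total RNA depleted of ribosomal RNA, called biological replicates in the labels. The labels state neither whether the drug was present at harvest nor whether the resistant cells are a single clone. The names of all 6 libraries end in NT, which the labels do not spell out.

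Methylation of cytosine in CpG pairs is copied after replication by DNMT1. UHRF1 binds hemimethylated DNA and ubiquitinates histone H3 and PCLAF, and DNMT1 docks on those marks. HELLS is a chromatin remodeller that gives the methyltransferases access to compacted DNA. DNMT3A and DNMT3B set new methylation, and TET enzymes oxidise methylcytosine as a step of its removal. Azacitidine, once converted and incorporated into DNA, binds DNA methyltransferases covalently and so depletes them. Bulk RNA counts do not measure protein, enzyme activity or methylation.

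Total counts ranged from 33007642 to 37991708 in resistant and from 34924828 to 43006918 in sensitive libraries. A principal component with 18.0% of the variance set the libraries numbered 3 apart from the other 4, after a component with 66.3% that parted the groups. Mitochondrial ribosomal RNA took 17.8%, 16.8% and 8.54% of counts in resistant replicates 1, 2 and 3 and 12.8% to 16.2% in sensitive libraries, and small nucleolar RNA 0.134% to 0.255% against 0.442% to 0.732%. The labels name the cell type myeloblast. Of its 5 granule genes, MPO (2 counts in each resistant library, 2 to 4 in each sensitive library), ELANE (0 to 2 in each group) and CTSG (0 in all 6) were near or at 0. AZU1 had 75 to 99 counts in resistant and 74 to 204 in sensitive libraries and did not pass, and PRTN3, with 2 to 19 counts in resistant and 44 to 66 in sensitive libraries, was called lower (edgeR adjusted p = 0.0253). The 5 genes summed to 2.24 to 3.32 CPM in resistant and 3.24 to 6.67 CPM in sensitive libraries. The list of 10 erythroid genes known from K562 summed to 918 to 1556 CPM in resistant and 721 to 1636 CPM in sensitive libraries. Of these sums, TFRC alone held 591 to 954 CPM in resistant and 325 to 1200 CPM in sensitive libraries. HBE1 had 4 to 10 counts in resistant and 0 to 2 in sensitive libraries. MTAP, known to be deleted in K562, had 0 counts in all 6. Of 6 lymphocyte genes, CD3D, CD3E and CD3G were lower, the list summed to 9.86 to 11.8 CPM in resistant and 27.9 to 121 CPM in sensitive libraries, and the B cell gene MS4A1 was at 0 in all. Among fibroblast and epithelial genes COL1A2 and CDH1 were higher and COL3A1 lower. The part of these markers, of ribosomal and of nucleolar RNA in the results was not tested.

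Promoter windows of 3 members hold 1 of the 2 forms of the E2F consensus that were searched. They are shown because UHRF1, DNMT1 and HELLS act together in maintenance while their fold changes were unequal. Promoter windows were taken from RefSeq (GRCh38.p14), from 250 bases before to 50 bases after a transcription start. The table matched 9 of the 10 genes, with 20 windows. Letters searched on both strands were TTTCGCGC and TTTGGCGC, which do not overlap each other in these windows. Other forms of the E2F consensus, such as the TTTCCCGC in the HELLS window, were neither searched nor marked. Members and windows without a match may therefore hold another form. Capitals mark the match. The windows are chr19:4909894-4910193 on the plus strand for UHRF1 (1 of its 3 windows), chr19:10194904-10195203 on the minus strand for DNMT1 and chr10:94545538-94545837 on the plus strand for HELLS, each written 5′ to 3′ along the gene.
UHRF1: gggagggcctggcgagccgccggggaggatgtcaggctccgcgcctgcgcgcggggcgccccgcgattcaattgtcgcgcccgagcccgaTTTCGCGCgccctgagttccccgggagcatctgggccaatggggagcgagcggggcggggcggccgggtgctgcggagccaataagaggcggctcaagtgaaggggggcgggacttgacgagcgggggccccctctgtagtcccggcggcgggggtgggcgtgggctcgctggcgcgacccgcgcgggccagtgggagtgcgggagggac
DNMT1: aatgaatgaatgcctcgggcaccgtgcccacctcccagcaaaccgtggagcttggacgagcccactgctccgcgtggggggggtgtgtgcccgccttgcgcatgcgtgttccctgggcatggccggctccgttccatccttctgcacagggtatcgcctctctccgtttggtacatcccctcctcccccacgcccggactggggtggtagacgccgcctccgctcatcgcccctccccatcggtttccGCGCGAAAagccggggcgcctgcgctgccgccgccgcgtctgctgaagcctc
HELLS: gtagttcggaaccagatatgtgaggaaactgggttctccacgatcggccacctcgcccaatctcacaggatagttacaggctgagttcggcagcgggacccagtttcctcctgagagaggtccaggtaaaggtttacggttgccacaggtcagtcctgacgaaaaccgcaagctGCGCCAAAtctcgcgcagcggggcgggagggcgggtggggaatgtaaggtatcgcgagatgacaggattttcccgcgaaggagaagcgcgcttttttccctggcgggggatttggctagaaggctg
The match begins 160 bases before the start in UHRF1, 76 bases before it in HELLS and 2 bases before it in DNMT1. Of 34943 promoter windows of this length, 1.14% hold either motif. A match describes letters and does not show binding. The same UHRF1 window holds 40 CpG pairs, a count reached by 7.61% of all windows, against 30 in the DNMT1 window and 22 in the HELLS window, where the median window holds 14.

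UHRF1 was the member that differed most between the groups. In CPM, counts scaled to library totals adjusted with edgeR's TMM factors, it had 172, 147 and 180 in resistant replicates 1, 2 and 3 and 82.0, 62.3 and 77.5 in sensitive replicates 1, 2 and 3. Every resistant library lay above every sensitive one. The means were 166 ± 16.9 CPM in resistant and 73.9 ± 10.3 CPM in sensitive cells (SD, n = 3 each). The fold was 2.25, with a 95% interval from 1.74 to 2.92 (edgeR quasi-likelihood test, adjusted p = 9.20e-04), and the gene ranked 906 of 20891 by p. In bulk RNA, more cells expressing a gene and more RNA per cell cannot be told apart. UHRF1 lies on chromosome 19 (4903080 to 4962154, GRCh38, plus strand).

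**Figure D1:**
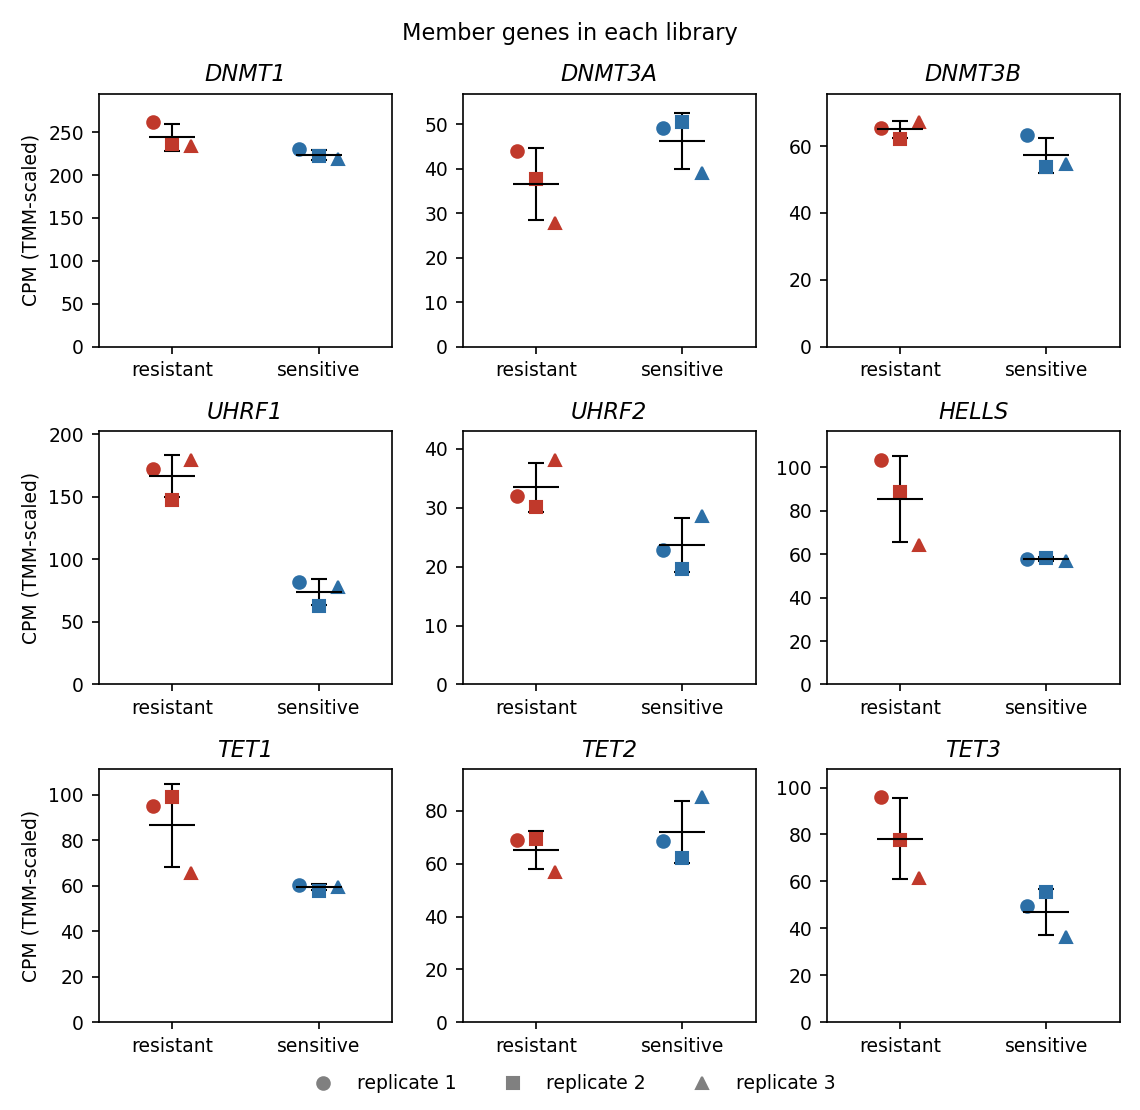
CPM of the 9 tested genes in each library, resistant on the left and sensitive on the right of each panel, with the mean and SD as a black bar and marker shapes for replicates 1 to 3. The resistant and sensitive UHRF1 values are far apart (147 to 180 against 62.3 to 82.0 CPM), while DNMT3A, DNMT3B and TET2 overlap.

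UHRF2, a paralogue of UHRF1 that also binds modified cytosine, had 32.0, 30.2 and 38.2 CPM in the resistant and 22.8, 19.6 and 28.6 CPM in the sensitive libraries. The groups were adjacent without overlapping, with replicate 3 highest in each. Its fold of 1.41 (interval 1.06 to 1.88) did not pass after adjustment (edgeR adjusted p = 0.0793), and passed without sensitive replicate 3 (0.0404). HELLS had 104, 88.8 and 64.2 CPM in resistant and 57.8, 58.4 and 56.9 CPM in sensitive cells. The sensitive libraries were close to each other, and resistant replicate 3 lay just above them. The fold of 1.48 (interval 1.12 to 1.97) fell next to the threshold (edgeR adjusted p = 0.0504), and HELLS passed without resistant replicate 3 (adjusted p = 0.00470).

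DNMT1, the transferase that copies methylation and a protein bound by the drug, had 262, 237 and 234 CPM in resistant and 230, 222 and 219 CPM in sensitive libraries. The groups did not overlap, but they were separated by less than the spread among resistant libraries. Its fold was 1.09, with an interval from 0.862 to 1.38 (edgeR adjusted p = 0.595). The log2 fold change of 0.13 turned to −0.029 with offsets for transcript length and GC content. DNMT1 lies on chromosome 19 (10133345 to 10231286, minus strand).

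The transferases of new methylation also did not pass. DNMT3A had 43.8, 37.7 and 27.8 CPM in resistant and 49.2, 50.6 and 38.9 CPM in sensitive libraries, a fold of 0.788 (interval 0.583 to 1.07, edgeR adjusted p = 0.240). Replicate 3 was lowest in each group, and resistant replicate 1 lay above sensitive replicate 3. With offsets for length and GC content DNMT3A was called lower (log2 fold change −0.59, adjusted p = 0.00781). DNMT3B had 65.4, 62.3 and 67.4 CPM in resistant and 63.4, 53.9 and 54.5 CPM in sensitive libraries, and its groups overlapped through sensitive replicate 1. Its fold was 1.14 (interval 0.913 to 1.41, edgeR adjusted p = 0.388). DNMT3L, a catalytically inactive cofactor known from germ cells, had no counts in the 3 resistant libraries and 3, 8 and 0 counts in sensitive replicates 1, 2 and 3. A count of 0 allows a level of up to 0.0754 to 0.0830 CPM in the resistant libraries (3 counts per library, counting error only). Sensitive replicates 1, 2 and 3 had 0.0733, 0.240 and 0 CPM. The gene was below the filter, so a difference was not tested.

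Of the TET genes, TET3 and TET1 passed the test and TET2 did not. TET3 had 95.8, 77.5 and 61.6 CPM in resistant and 49.5, 55.3 and 36.4 CPM in sensitive libraries. The groups did not overlap, and replicate 3 was lowest in each. TET3 rose 1.66-fold (interval 1.20 to 2.30, edgeR adjusted p = 0.0306), a call that was lost without resistant replicate 1 (0.0985), resistant replicate 2 (0.0926), sensitive replicate 1 (0.0903) or sensitive replicate 3 (0.0795). With offsets for length and GC content its log2 fold change was 0.50 rather than 0.73, and 0.43 with both libraries numbered 3 also left out.

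TET1 had 95.1, 98.7 and 65.6 CPM in resistant and 60.4, 57.8 and 59.4 CPM in sensitive libraries. Resistant replicate 3 lay close to the sensitive libraries and the other 2 well above them. TET1 rose 1.46-fold (interval 1.11 to 1.92) with an edgeR adjusted p of 0.0499, which is at the threshold. The call was lost without resistant replicate 1 (0.136), resistant replicate 2 (0.222), sensitive replicate 1 (0.149), sensitive replicate 2 (0.169) or sensitive replicate 3 (0.0927), and with limma-voom (0.0642).

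TET2 had 69.0, 69.5 and 56.9 CPM in resistant and 68.4, 62.3 and 85.1 CPM in sensitive libraries, and the groups overlapped. Its fold was 0.905 (interval 0.699 to 1.17, edgeR adjusted p = 0.575), and its direction turned when both libraries numbered 3 were left out (log2 fold change 0.068) and when library totals alone were used for scaling (0.037), an alternative that moves the median of all genes to 0.20 from 0.03.

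Of the 9 tested members, 3 rose (UHRF1, TET3 and TET1), 0 fell and 6 did not pass, where edgeR called 9.83% of all 20891 tested genes higher, 13.1% lower and 23.0% in either direction. That balance turns with the scaling: library totals alone gave 3041 genes higher and 2118 lower, against 2054 and 2741 with TMM factors, and upper quartile factors 2502 and 2497. At an unadjusted p below 0.05 the members numbered 5 higher and 0 lower, a threshold at which all genes were not counted. DESeq2 called 4 higher and 0 lower, against 12.6% of all genes higher and 14.9% lower. With limma-voom the members numbered 2 and 0, against 9.25% and 12.9% of all genes. The number called higher was 1 without resistant replicate 1, resistant replicate 2 or sensitive replicate 1, and 5 without both libraries numbered 3, UHRF1 being called in each of these. The genes called higher over the whole table changed as well, to 6.30%, 4.86% and 4.84% without each of those single libraries and to 21.2% without both numbered 3, where 22.9% were called lower. Groups did not overlap for 6 members, all higher in resistant cells, where 40.1% of all tested genes did not overlap, 18.7% being higher and 21.4% lower. The median log2 fold change was 0.50 over the 9 members and 0.03 over all tested genes.

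**Figure D2:**
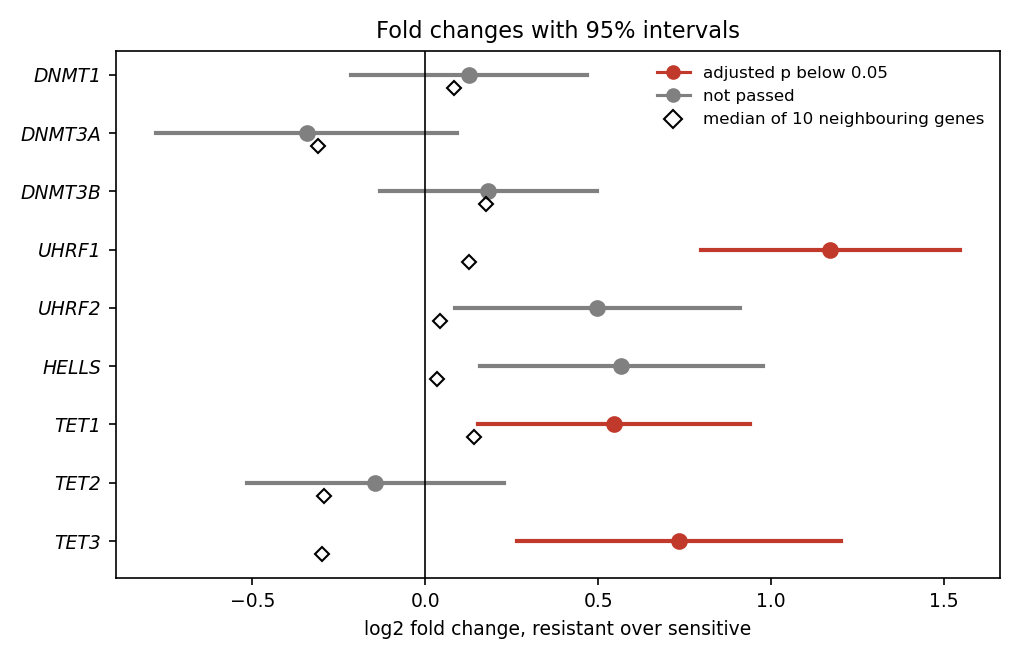
Log2 fold change of each tested gene, resistant over sensitive, with its 95% interval from the edgeR fit (red, adjusted p below 0.05; grey, not passed), and the median log2 fold change of the 10 nearest tested protein-coding genes as open diamonds. The UHRF1 interval (0.80 to 1.54) starts above the UHRF1 neighbours' median of 0.13, and the DNMT3A estimate of −0.34 lies beside its neighbours' median of −0.31.

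**Figure D3:**
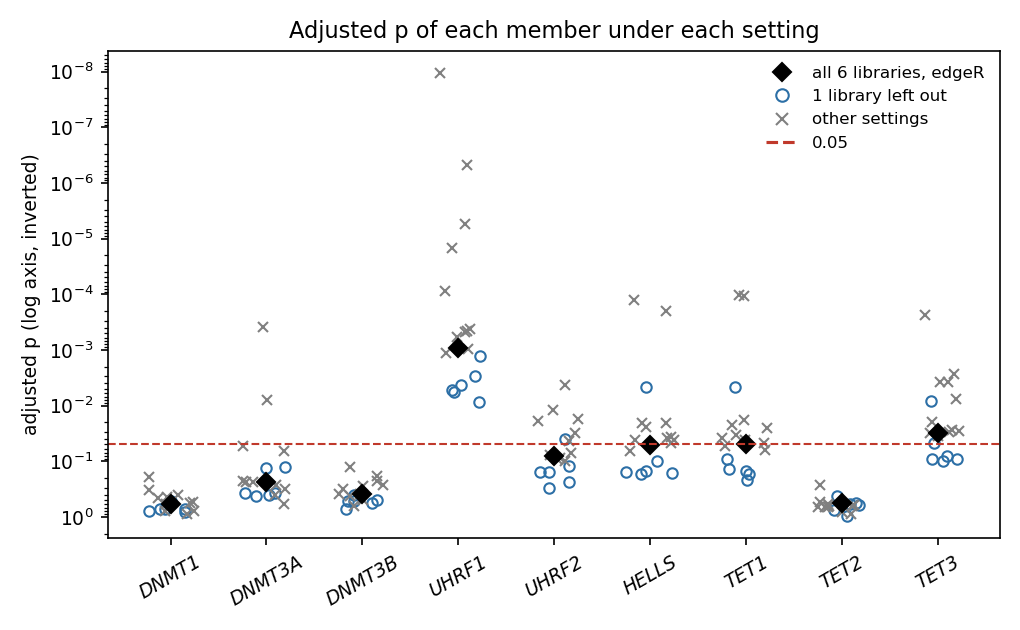
Adjusted p of each tested gene on an inverted log axis, with all 6 libraries and edgeR (black diamonds), with 1 library left out (blue circles) and under the other settings (grey crosses), and the 0.05 threshold as a dashed line. UHRF1 stays above the line in every setting plotted (highest adjusted p 0.00880), while HELLS, TET1, TET3, UHRF2 and DNMT3A lie on both sides of it.

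The members were set beside the genes around them, the 5 nearest tested protein-coding genes on each side. UHRF1's 10 neighbours had a median log2 fold change of 0.13, with 3 called higher by edgeR, and the highest neighbour reached 0.90 against 1.17 for UHRF1. DNMT3A on chromosome 2 (25227855 to 25342590) had a log2 fold change of −0.34 beside a neighbour median of −0.31, over a stretch of 1.70 Mb. TET3, on the same chromosome (73986404 to 74108176), had 0.73 beside a neighbour median of −0.30 and a highest neighbour of 0.02. TET2 on chromosome 4 (105145875 to 105279816) had −0.14 beside −0.29, and TET1 on chromosome 10 (68560656 to 68694482) had 0.55 beside 0.14, with the highest neighbour at 0.61. For DNMT3B on chromosome 20 (32762385 to 32809356) both values were 0.18. HELLS on chromosome 10 (94501434 to 94613905) stood at 0.57 beside 0.03, UHRF2 on chromosome 9 (6413151 to 6507054) at 0.50 beside 0.04, and DNMT1 at 0.13 beside 0.08.

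Within a library, the scaling cancels from ratios between members, except for the 0.5 CPM added here to each value. With nothing added, the difference for UHRF1 to DNMT1 was also 1.05. Offsets for length and GC content were not applied to the ratios. The log2 ratio of UHRF1 to DNMT1 (CPM plus 0.5) was −0.60, −0.68 and −0.38 in resistant and −1.48, −1.83 and −1.49 in sensitive libraries, a difference of 1.05. UHRF1 was therefore raised relative to DNMT1 in 3 of 3 resistant libraries. The ratio of UHRF1 to UHRF2 was higher by 0.67 and that of UHRF1 to HELLS by 0.64. TET1 over TET2 was higher by 0.66 and TET3 over TET2 by 0.86, while DNMT3A over DNMT3B was lower, with a difference of −0.54. Without resistant replicate 3 the UHRF1 to HELLS difference was 0.39 and that of DNMT3A over DNMT3B −0.33, and without sensitive replicate 3 that of TET3 over TET2 was 0.56. In none of these ratios did the groups overlap, and each gave p = 0.1 in the exact two-sided permutation test, also 0.1 after adjustment over the 7 ratios computed, which is the smallest that 3 against 3 libraries allow.

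Levels were compared between genes as CPM per kilobase of annotated exon. UHRF1 led in resistant cells with 32.4 ± 3.29 CPM per kb, ahead of DNMT1 with 24.9 ± 1.62 and DNMT3B with 14.0 ± 0.554 (SD, n = 3). In sensitive cells DNMT1 led with 22.8 ± 0.589 CPM per kb, ahead of UHRF1 with 14.4 ± 2.01 and DNMT3B with 12.4 ± 1.15, and these last values overlapped. Below them in resistant cells came TET1 (9.31), HELLS (8.42), TET3 (6.38), TET2 (3.95), UHRF2 (3.37) and DNMT3A (3.03 CPM per kb). The ranges of TET1 and HELLS, of HELLS and TET3, of TET2 and UHRF2 and of UHRF2 and DNMT3A overlapped. In sensitive cells the order was TET1 (6.38), HELLS (5.69), TET2 (4.37), DNMT3A (3.85), TET3 (3.84) and UHRF2 (2.39 CPM per kb), with overlap between TET2 and DNMT3A and between DNMT3A and TET3. Per kilobase of the longest annotated transcript, DNMT1 led in both groups, with 45.2 against 38.6 for UHRF1 in resistant cells, so the leading place depends on the length used. The order below it does too: on that length HELLS had rank 3 and UHRF2 rank 6 in resistant cells, and HELLS rank 4, TET2 rank 5, TET1 rank 6 and UHRF2 rank 7 in sensitive cells.

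Shares of the summed TET level are given as a description. TET2 held 18.8%, 19.9% and 22.2% of the summed TET level per kilobase in resistant libraries and 28.3%, 26.1% and 35.5% in sensitive libraries, with no overlap. TET1 held 46.0%, 50.2% and 45.5% in resistant and 44.3%, 42.9% and 44.0% in sensitive libraries. TET3 held 35.1%, 29.8% and 32.3% against 27.4%, 31.0% and 20.4%, and these overlapped. The summed level was 22.2, 21.2 and 15.5 CPM per kb in resistant and 14.7, 14.5 and 14.5 CPM per kb in sensitive libraries, so that resistant replicate 3 was close to the sensitive cells. Of the summed DNMT level, DNMT1 held 59.3% ± 0.772 in resistant and 58.5% ± 1.48 in sensitive cells (SD, n = 3 each). DNMT3A held 8.19%, 7.70% and 5.68% in resistant and 9.92%, 10.9% and 8.67% in sensitive libraries, with no overlap.

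**Figure D4:**
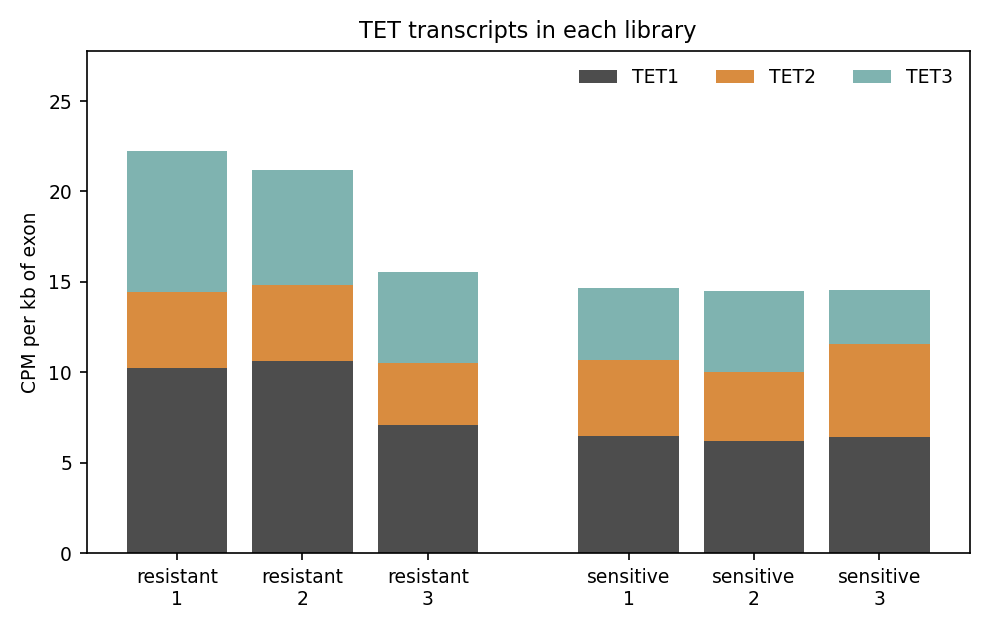
Level of TET1, TET2 and TET3 in each library, stacked, in CPM per kb of annotated exon, resistant replicates 1 to 3 on the left and sensitive replicates 1 to 3 on the right. The summed level is 22.2 and 21.2 in resistant replicates 1 and 2, 15.5 in resistant replicate 3 and between 14.5 and 14.7 in sensitive libraries.

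Genes that bring the machinery to DNA or modify it were read next. Of 17 tested partners of maintenance and targeting, 3 rose, 1 fell and 13 did not pass, with a median log2 fold change of 0.29. Over all tested genes, 9.83% were called higher and 13.1% lower. PCLAF, the PCNA-associated factor that UHRF1 ubiquitinates, had 37.8, 44.0 and 53.6 CPM in resistant and 23.7, 16.9 and 21.9 CPM in sensitive libraries, a rise of 2.16-fold (edgeR adjusted p = 0.00262). The groups did not overlap. SETD7, a lysine methyltransferase that can mark DNMT1 for degradation, had 19.9, 18.3 and 28.8 CPM in resistant and 106, 110 and 106 CPM in sensitive libraries, a log2 fold change of −2.26 (edgeR adjusted p = 3.52e-05). NSD1, which methylates histone H3 at a residue read by DNMT3A, rose 1.60-fold (0.00930), and TRIM28, a corepressor at repeats, rose 1.40-fold (0.0495). The TRIM28 call was lost without any single library (0.0507 to 0.218), and the NSD1 call without resistant replicate 2 or sensitive replicates 1 or 2 (up to 0.0707). The number that rose was therefore 1 without each of those 3 libraries, and 2 fell without resistant replicate 3. Without both libraries numbered 3, 7 rose and 3 fell, and with library totals alone 8 rose. Over all genes, 4.86%, 4.84% and 5.29% were higher without resistant replicate 2, sensitive replicate 1 and sensitive replicate 2. Without resistant replicate 3, 16.5% were lower. The shares were 21.2% higher and 22.9% lower without both libraries numbered 3, and 14.6% higher with library totals alone. USP7, the deubiquitinase that protects UHRF1 and DNMT1, had 139 ± 8.53 CPM in resistant and 101 ± 15.5 CPM in sensitive cells (edgeR adjusted p = 0.0636), and CDCA7, the HELLS partner, 72.8 ± 8.81 and 66.4 ± 15.9 CPM (0.660). USP7 and CDCA7 are named outside the rule for named genes, after their values were seen.

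On the removal side, 3 of 14 tested genes of base excision, repair and deamination fell, 0 rose and 11 did not pass, with a median of −0.23. Over all tested genes, 13.1% were called lower and 9.83% higher. No gene of the list rose at an unadjusted p below 0.05, a threshold at which all genes were not counted. None rose with DESeq2 or with limma-voom, which called 12.6% and 9.25% of all genes higher. GADD45B and GADD45A, stress-induced genes with a debated part in demethylation, fell to 3.10 ± 0.369 and 30.1 ± 1.86 CPM in resistant cells, against 12.4 ± 2.12 and 61.9 ± 18.6 CPM in sensitive cells. These were 3.99-fold and 2.06-fold lower (edgeR adjusted p = 2.20e-04 and 0.00800). APOBEC3B, a cytidine deaminase acting on single-stranded DNA, fell 2.50-fold (0.00295). The glycosylase gene TDG, which excises the oxidised bases made by TET enzymes, did not pass (log2 fold change 0.19, adjusted p = 0.607); it too is named after its value was seen. Without resistant replicate 3 the genes that fell numbered 5, and without both libraries numbered 3 they numbered 7. The shares of all genes called lower in those settings were 16.5% and 22.9%.

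Of 9 tested cofactor and regulator genes of the TET enzymes, 2 rose and 1 fell, with a median of 0.04. Over all tested genes, 9.83% were called higher and 13.1% lower. PROSER1 and DCAF1, both known as TET regulators, rose 1.97-fold and 1.94-fold (edgeR adjusted p = 0.00493 and 0.00507). IDH2, a mitochondrial source of the TET cofactor 2-oxoglutarate, fell 1.60-fold (0.0319), a call lost without resistant replicates 1 or 2 or sensitive replicates 1 or 2 (up to 0.139). The genes that fell numbered 3 without resistant replicate 3 and 2 without sensitive replicate 3, where 16.5% and 12.2% of all genes fell. Without both of these libraries, 4 fell and 3 rose, against 22.9% of all genes lower and 21.2% higher.

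Of 13 tested genes of the S-adenosylmethionine cycle, which makes the methyl donor, 1 rose and 1 fell, with a median of −0.01, where 23.0% of all tested genes were called. The number that rose was 3 with DESeq2, upper quartile factors, library totals alone, a filter of 50 counts or offsets for length and GC content. In those settings 12.6%, 12.0%, 14.6%, 13.4% and 12.3% of all genes were called higher. NNMT, which spends S-adenosylmethionine on nicotinamide, had 1.47, 1.16 and 1.05 CPM in resistant and 12.6, 15.9 and 12.2 CPM in sensitive libraries, 11.1-fold lower (edgeR adjusted p = 1.08e-05). AHCYL2 rose 1.92-fold (0.0105, and 0.0618 without sensitive replicate 1). The risen genes numbered 0 without sensitive replicate 1 and 2 without sensitive replicate 3, and 2 fell without resistant replicate 3. Of all genes, 4.84% and 8.23% were higher without sensitive replicates 1 and 3, and 16.5% lower without resistant replicate 3. Without both libraries numbered 3, 3 listed genes rose and 3 fell, against 21.2% of all genes higher and 22.9% lower.

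UHRF1, DNMT1 and HELLS are known as genes of replicating cells, so genes of S phase and of G2 and M were set beside them. Of 32 S phase genes tested with edgeR, 0 rose, 0 fell and 32 did not pass, with a median log2 fold change of −0.17 and values from −0.53 to 0.60, all below the 1.17 of UHRF1. At an unadjusted p below 0.05 there were 1 higher and 2 lower, with no count over all genes. DESeq2 and limma-voom called 0, against 12.6% and 9.25% of all genes higher and 14.9% and 12.9% lower. Without resistant replicate 3, 8 fell and 1 rose, against 16.5% of all genes lower and 14.8% higher. Without sensitive replicate 3, 1 fell, against 12.2% of all genes. Without both libraries numbered 3, 14 fell and 2 rose, against 22.9% of all genes lower and 21.2% higher. The log2 ratio of UHRF1 to the S phase median was 1.18, 0.78 and 1.12 in resistant and −0.11, −0.50 and −0.30 in sensitive libraries, a difference of 1.33 with no overlap (exact permutation p = 0.1). PCNA, the replication clamp and named after its value was seen, had 208 ± 44.0 CPM in resistant and 227 ± 47.7 CPM in sensitive cells.

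Over all tested genes, 9.83% were called higher and 13.1% lower. Of 18 G2 and M phase genes, 2 rose, 0 fell and 16 did not pass, with a median of 0.20. At an unadjusted p below 0.05, 4 were higher and 4 lower, with no count over all genes. DESeq2 called 4 higher and 1 lower (12.6% and 14.9% of all genes), and limma-voom 1 and 0 (9.25% and 12.9%). MKI67, the proliferation antigen gene, had 393, 310 and 187 CPM in resistant and 181, 175 and 157 CPM in sensitive libraries (1.74-fold, edgeR adjusted p = 0.0452). KIF23, a kinesin of cell division, rose 1.57-fold (0.0299). The number that rose was 1 without resistant replicate 1 or resistant replicate 3 and 0 without any of the other 4 libraries, and 3 fell without resistant replicate 3. Of all genes, 6.30% were higher without resistant replicate 1, 14.8% without resistant replicate 3 and 4.84% to 8.23% without 1 of the other 4. Without resistant replicate 3, 16.5% of all genes were lower. Without both libraries numbered 3, 5 listed genes rose and 5 fell, against 21.2% of all genes higher and 22.9% lower. Like HELLS, TET1 and TET3, MKI67 was highest in resistant replicates 1 and 2 and nearer to sensitive cells in resistant replicate 3. The list as a whole did not share this pattern. Among resistant libraries most other listed genes peaked in replicate 3, KIF23 among them (75.1, 76.1 and 111 CPM, by replicate number).

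**Figure D5:**
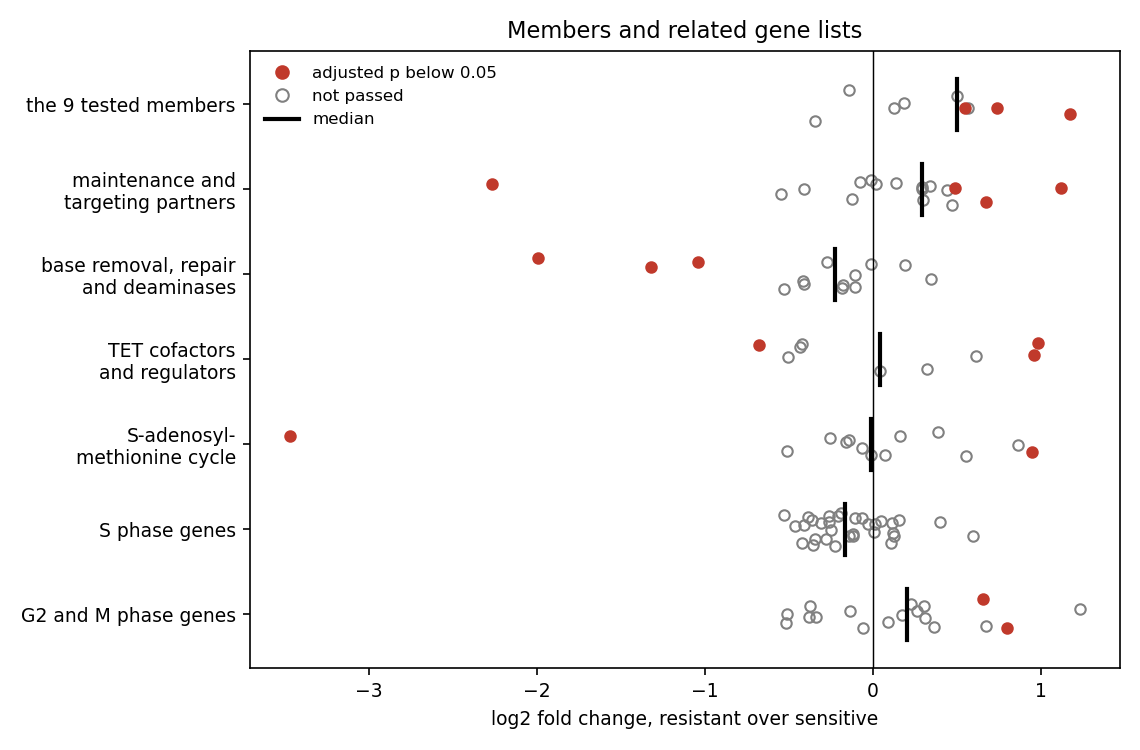
Log2 fold changes, resistant over sensitive, of the 9 tested members and of the tested genes of 6 related lists, each circle a gene (filled red, adjusted p below 0.05; open grey, not passed) and each black bar a median. None of the 32 S phase genes is filled and all lie left of UHRF1 at 1.17, while SETD7 (−2.26), GADD45B (−1.99) and NNMT (−3.47) lie far to the left.

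Germline genes whose promoters are methylated in somatic cells were read beside the enzymes. Of 12 listed, 6 passed the filter, and a gene silent in sensitive cells passes it only through the resistant libraries, so the called share carries no weight. BRDT had 203, 183 and 188 counts in resistant and 1, 0 and 0 counts in sensitive libraries, TDRD12 590, 807 and 612 against 4, 6 and 1, HORMAD1 54, 46 and 60 against 3, 3 and 4, and MAEL 22, 38 and 69 against 0, 2 and 0. All 4 were called higher. SYCP3, of the meiotic chromosome axis, and STK31 were measured in both groups and did not pass, and DAZL, DDX4, TDRD1, TDRD9, FKBP6 and SLC25A31 stayed below the filter. These transcripts do not measure methylation.

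Likeness to UHRF1 was read over 8999 genes with a mean log2 CPM of at least 3 and no placeholder symbol. ARIH1, DGKZ, H2AZ2, TFR2 and TRIM28 followed its log2 CPM most closely over the 6 libraries, with Pearson's r from 0.993 to 0.998. All 5 were higher in resistant cells, with log2 fold changes from 0.44 for DGKZ to 0.94 for TFR2. Their direction was set by the choice, since UHRF1 itself parted the groups. For DNMT1 the closest genes were ANKS1A, PDPR2P, SLC23A2, PHF13 and RABGAP1 (r from 0.988 to 0.997). None of these passed, and DNMT1, by which they were chosen, did not pass either. With 6 libraries in 2 groups such values are a description of these libraries.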

How the data were processed

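RNA was measured in 3 resistant and 3 sensitive K562 libraries. The authors deposited a table of raw counts, 1 row per Ensembl gene. The submitters' processing notes name Trimmomatic 0.39, HISAT2 2.2.1, featureCounts, Subread 2.0.3 and the build GRCh38, with no order. Annotation release, strand setting and counting unit (reads or fragments) were not found there, so overlapping genes are uncertain. Symbols came from a name table (61369 of 61487 IDs), positions and exon lengths from GENCODE 29.

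filterByExpr kept 20891 genes. TMM scaling preceded edgeR's two-sided quasi-likelihood test with robust fitting (edgeR 4.0.16, R 4.3.3), adjusted by Benjamini-Hochberg over all tested genes, at a threshold of 0.05. The SE is the size of the log2 fold change over the square root of F. Alternatives were limma-voom 3.58.1, DESeq2 1.42.0, other scalings and filters, and leaving out libraries. The fits were tested on simulated counts.

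The members and lists were chosen with earlier results of these data known. Named are the 10 members, up to 4 called genes per list, and the 5 genes most like UHRF1 and DNMT1. Outside that rule, USP7, CDCA7, TDG, PCNA, MTAP and the germline genes not called or not tested are named after their values were seen; cell type markers are given as values. The labels do not describe separate cultures, so a p-value may reflect technical spread alone.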

Additional observations from a re-analysis of the deposited data

How the results depend on the processing

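UHRF1 was called higher in all 18 alternatives (log2 fold change 1.04 to 1.34), and DNMT3B in none. With upper quartile factors, library totals alone, a filter of 50 counts or the replicate block, 5 members were called higher. Of all genes, 12.0%, 14.6%, 13.4% and 13.7% were then higher, against 9.83% in the main fit. The number was also 5 with both libraries numbered 3 left out (21.2% of all genes), and with length and GC offsets besides (24.1%). It was 1 at an adjusted p below 0.01 (4.49%), and 1 to 4 with 1 library left out (4.84% to 14.8%). HELLS passed with DESeq2 size factors (0.57), upper quartile factors (0.65), library totals (0.74), no filter (0.54), 50 counts (0.61), the replicate block (0.54), DESeq2 (0.57), offsets (0.59), both numbered 3 left out (0.71) and both changes (0.71). UHRF2 passed with upper quartile factors (0.58), library totals (0.68), 50 counts (0.54), the replicate block (0.51), both numbered 3 left out (0.54) and offsets with that (0.42). TET1 was lost with no filter (0.52), limma-voom (0.52) and the 0.01 threshold (0.55), and TET3 with that threshold (0.73). With 1 library left out, values ran from 0.41 to 0.71 for HELLS, 0.35 to 0.65 for UHRF2, 0.44 to 0.69 for TET1 and 0.57 to 0.86 for TET3. Offsets gave 1 member called lower, DNMT3A (−0.59, also with both numbered 3 left out), and turned DNMT1 (−0.029 and −0.037). Of all genes, 13.4% and 21.6% were called lower in these 2 settings. TET2 turned with library totals (0.037) and with both numbered 3 left out (0.068). The cause was not tested. Same-numbered libraries deviated together with r of 0.20, 0.08 and 0.30, and resistant replicate 1 and sensitive replicate 2 with r of 0.23. Each library numbered 3 had a negative r with those of other numbers in the other group (−0.31 to −0.08). Deviations were taken from each group's mean, so these negative values follow in part from the positive r of the libraries numbered 3. Whether the libraries numbered 3 share an effect was not tested. The labels state no pairs, so the main fit took none, and the replicate block was an alternative. DNMT3L and other low genes are limited by depth.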

Other observations

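Some annotated transcripts overlap or resemble the members. An unnamed antisense gene inside UHRF2 had 19, 8 and 11 counts in resistant and 3, 1 and 1 counts in sensitive libraries, and the processed pseudogene UHRF2P1 had 19, 16 and 7 against 1, 6 and 2. TET2-AS1, on the opposite strand of TET2, had 54, 37 and 11 counts in resistant and 22, 18 and 18 in sensitive libraries (edgeR adjusted p = 0.355). The pseudogene TET1P1 had 28, 19 and 6 against 26, 22 and 22 counts (0.637), and DNMT3AP1 had 0 counts in resistant and 2 in sensitive libraries. Beside UHRF2, TET1 and TET2 with 651 to 3926 counts per library, these counts are small, and with the strand setting unknown, reads of overlapping genes cannot be told apart. S1PR2, which overlaps the annotated DNMT1 locus, had 374 summed counts in resistant and 319 in sensitive libraries, against 27793 and 24981 for DNMT1. TBC1D12, on the same strand as HELLS and overlapping it, had 2499 and 2590 summed counts (log2 fold change −0.07), against 9716 and 6434 for HELLS.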
